A study of Arabidopsis thaliana with 24 samples.

Results

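The 38 loci described here encode the cytosolic enzymes of glycolysis and the first enzymes of ethanolic fermentation in Arabidopsis thaliana, with the few plastid paralogs that share their family names. They were taken as a list of loci by enzyme name: 3 hexokinase-type proteins, phosphoglucose isomerase, 7 ATP-dependent phosphofructokinases, 4 subunits of the pyrophosphate-dependent phosphofructokinase (PFP), 5 aldolases, triose-phosphate isomerase, GAPC1, GAPC2, the non-phosphorylating NP-GAPDH, phosphoglycerate kinase 3, both cofactor-independent phosphoglycerate mutases, 3 enolases, 5 cytosolic pyruvate kinases, 2 pyruvate decarboxylases and alcohol dehydrogenase 1. All 38 were among the 32833 loci counted in each library, and 37 passed the filter on low counts that left 21290 loci to test. The aldolase FBA5 did not pass, with at most 34 reads in any library. The study measured messenger RNA in roots by RNA sequencing in 24 libraries, 3 in each of 8 groups, during a synchronous induction of lateral roots.

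Each group combined a genotype, an inducer and a medium. The genotypes were Col-0, the wild type, and a transgenic line whose UB10 promoter drives an estradiol-inducible artificial microRNA against TOR, the kinase that links nutrient and hormone state to growth; it is called amiR-TOR here. All seedlings, grown for 7 days, first spent 24 h on 10 µM NPA, an inhibitor of auxin transport that holds back lateral root initiation. They then spent 24 h on 10 µM NPA with either 10 µM estradiol or its solvent DMSO. For the last 6 h they either stayed on those plates or went to 10 µM of the auxin IAA, again with estradiol or DMSO. The 8 groups are therefore Col-0 and amiR-TOR, each on NPA, NPA with estradiol, IAA, and IAA with estradiol. The labels give no line or clone number for amiR-TOR, and no group of a control line carrying the inducible system without the microRNA was analysed here. About 200 root segments were pooled for a library, so each value is an average over all root cell types. The labels number the 3 libraries of a group without saying whether they came from separate plantings, so the tests measure the spread between these libraries.

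Glycolysis turns sugar phosphates into pyruvate. Its committing steps are catalysed by hexokinase, phosphofructokinase and pyruvate kinase, and plants also carry PFP, which runs the phosphofructokinase step in either direction with pyrophosphate instead of ATP. When oxygen is short, pyruvate decarboxylase and alcohol dehydrogenase convert pyruvate to ethanol and regenerate NAD+. In Arabidopsis roots PDC1 and ADH1 are classical low-oxygen genes, and roots run glycolysis on sugar delivered from the shoot.

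The libraries held 9687525 to 44273249 reads, and their gene counts ranged from 8589833 to 40494513. In 5 libraries (Col-0 NPA 1, Col-0 IAA 1, Col-0 IAA with estradiol 2 and 3, and amiR-TOR IAA with estradiol 1) between 25.8% and 47.6% of the reads did not map, against 1.56% to 12.05% in the other 19. TOR, the target of the microRNA, averaged 56.9 ± 6.33 CPM (counts scaled to a common library size; SD, n = 3) in amiR-TOR on NPA and 27.0 ± 5.81 with estradiol, and 63.4 ± 6.32 against 26.4 ± 1.7 on IAA. Its log2 fold change with estradiol was -1.08 ± 0.15 (standard error, SE) on NPA and -1.27 ± 0.15 on IAA in amiR-TOR, and 0.12 ± 0.15 and 0.29 ± 0.15 in Col-0. All 7 root markers searched (SHR, SCR, WER, COBL9, EXPA7, CASP1 and PYK10) had reads in every library. The summed level of 6 markers of green tissue was 214 ± 38.2 CPM in Col-0 on NPA and 57.9 ± 15.3 on IAA, and 162 ± 5.28 in amiR-TOR on NPA and 39.5 ± 17.5 with estradiol.

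Per kilobase of exon, the middle of the pathway was the most abundant. Averaged over all libraries, GAPC1, the cytosolic glyceraldehyde-3-phosphate dehydrogenase, led with 1031 CPM per kb, followed by its paralog GAPC2 with 722, the aldolase FBA8 with 509, the enolase ENO2 with 505, triose-phosphate isomerase (cTPI) with 378 and phosphoglycerate kinase PGK3 with 290.3. The kinases at both ends lay lower: hexokinase HXK1 reached 44.3 CPM per kb, PFK7, the highest of the phosphofructokinases, 56.5, and the highest pyruvate kinase, AT5G08570, 111. PDC2 stood at 29.5 CPM per kb, PDC1 at 22.6 and ADH1 at 5.27, the last ranking 34th of the 38. The aldolases FBA7, at 0.141 CPM per kb, and FBA5, at 0.063, were near 0. The summed level of all members in Col-0 was 7488 ± 241 CPM on NPA, 9013 ± 192 on NPA with estradiol, 8054 ± 344 on IAA and 7879.6 ± 203 on IAA with estradiol. The amiR-TOR sums were 9205 ± 229, 12413 ± 613, 8959.9 ± 599.7 and 10595 ± 1109 CPM in the same order of media. On NPA the libraries with estradiol lay above those without in both genotypes.

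**Figure D1:**
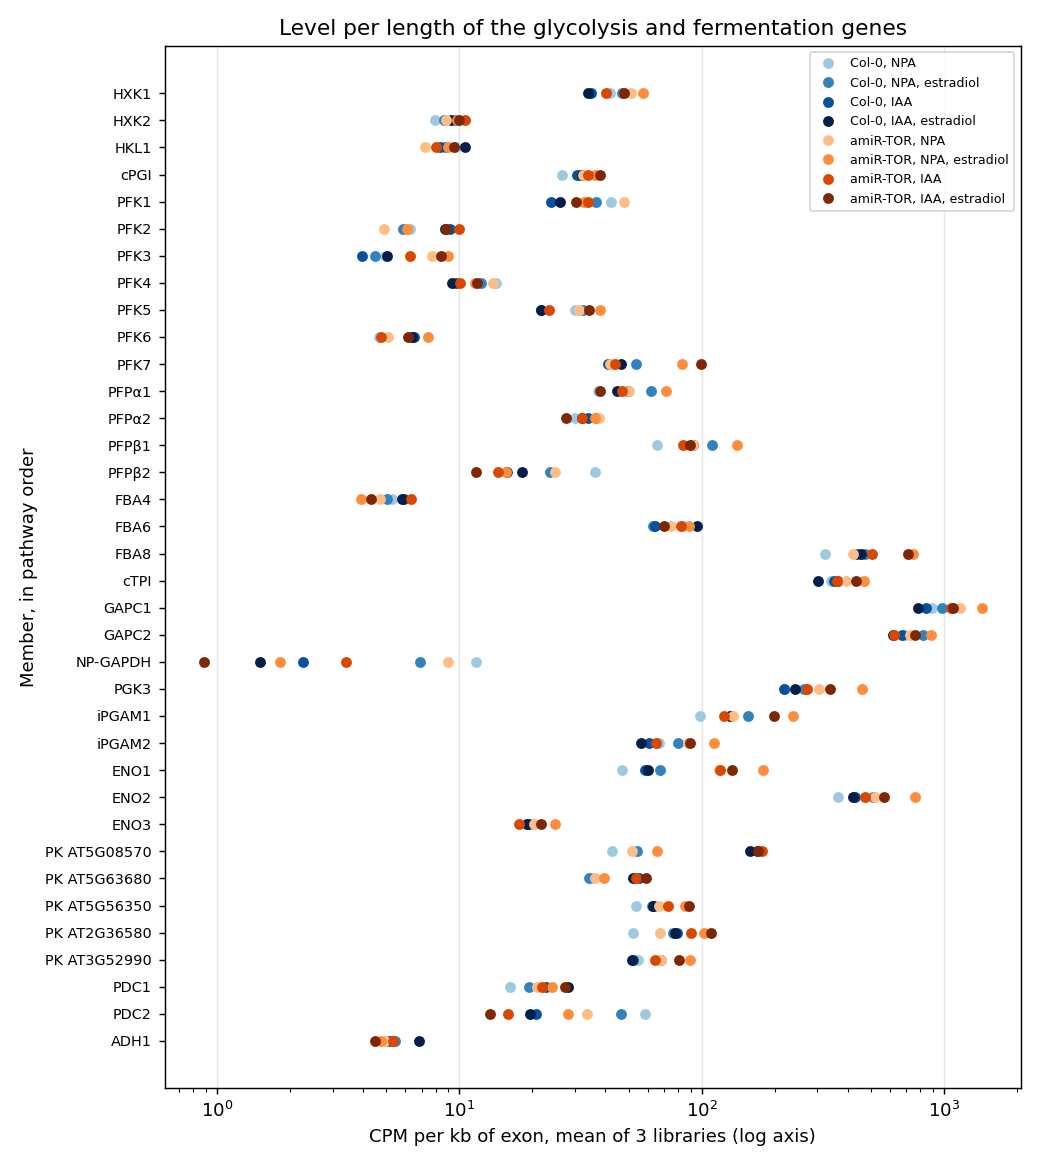
Level of 36 members per kilobase of exon (x axis, log scale; each point is the mean CPM per kb of 3 libraries, coloured by group), in pathway order from hexokinase at the top to ADH1 at the bottom; FBA5 and FBA7 are not drawn. GAPC1, GAPC2, FBA8 and ENO2 lie farthest to the right, while NP-GAPDH spreads most widely between groups.

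Some isozymes of the pathway were higher on IAA than on NPA and others lower. The IAA groups also left their NPA plates for the last 6 h, while the NPA groups stayed. Effects of IAA, of leaving those plates and of the move itself cannot be told apart. A change "with IAA" or "with auxin" means this comparison throughout. A gene was called when its adjusted p in edgeR's quasi-likelihood test, with Benjamini-Hochberg adjustment over all 21290 genes, was under 0.05. In Col-0 without estradiol, IAA against NPA called 23 of the 37 tested members, 15 higher and 8 lower, where 63.3% of all tested genes were called (31.3% higher and 32% lower). The share of members called was therefore close to that of all genes. Their median log2 fold change was 0.04, beside -0.04 for all genes, and the range ran from -2.39 ± 0.28 (NP-GAPDH) to 1.99 ± 0.10 (pyruvate kinase AT5G08570). With estradiol present in Col-0, 21 were called, 5 higher and 16 lower, against 59.3% of all genes (29.9% higher and 29.3% lower). In amiR-TOR the counts were 15 without estradiol, 6 higher and 9 lower, against 52.8% of all genes (29.3% higher, 23.5% lower), and 16 with estradiol, 3 higher and 13 lower, against 39.2% (20.6% higher, 18.6% lower). In these root pools a lower level can mean fewer cells that carry the transcript or less of it per cell, which cannot be told apart. The green markers fell with IAA in Col-0 (5 of 6 called lower), as did 5 of the 7 root markers, whose summed level, mostly PYK10, went from 20401 ± 993 to 9684 ± 838 CPM, and their part in the member changes was not tested.

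Induction of the knock-down raised more members than it lowered. Estradiol against solvent in amiR-TOR on NPA called 19 members, 16 higher and 3 lower, beside 33% of all genes (20% higher and 13% lower). The members' median was 0.30 and that of all genes 0.07. Over the same comparison the summed root markers, mostly PYK10, went from 17902 ± 297 to 9237 ± 1359.9 CPM (2 of 7 called higher and 1 lower), and the summed green markers from 162 ± 5.28 to 39.5 ± 17.5 CPM (3 of 6 called lower); their part was not tested. On IAA 12 were called, 9 higher and 3 lower, beside 18.9% of all genes (8.99% higher and 9.9% lower), with medians of 0.23 and -0.01. Estradiol alone, in Col-0 on NPA, also called 15 members, 12 higher and 3 lower, beside 21.7% of all genes (12.4% higher and 9.3% lower). In Col-0 on IAA it called 1, FBA6, beside 1.02%. That call was lost without Col-0 IAA 1 (0.52), Col-0 IAA 3 (0.57) or Col-0 IAA with estradiol 2 (0.54). Without the 5 libraries of high unmapped share the value was 0.48, with only replicate 1 left in Col-0 IAA with estradiol. The uninduced line also differed from Col-0: 21 members were called on NPA, 18 higher and 3 lower, beside 22.1% of all genes (10.7% higher and 11.4% lower), and 7 on IAA, 6 higher and 1 lower, beside 12.6% (8.52% higher and 4.11% lower). Without Col-0 NPA 3 the count for estradiol in Col-0 on NPA was 7, and that for genotype on NPA 12; without amiR-TOR NPA 1 or 2 the latter was 11, and without Col-0 IAA 1 or 3 the genotype count on IAA was 2. The Col-0 libraries on NPA serve in the auxin, estradiol and genotype comparisons, which are therefore not independent of each other.

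The difference between genotypes in the response to estradiol was tested directly. On IAA it called 7 members, 5 higher and 2 lower in amiR-TOR, beside 9.17% of all genes (4.44% higher and 4.73% lower), and on NPA 2 members, FBA6 (higher) and NP-GAPDH (lower), beside 2.62% (1.24% higher and 1.38% lower). On NPA none was left without Col-0 NPA with estradiol 1 or 2, amiR-TOR NPA 2 or 3, or amiR-TOR NPA with estradiol 2, and 1 without Col-0 NPA 2 or 3, Col-0 NPA with estradiol 3 or amiR-TOR NPA with estradiol 3. The 5 higher on IAA were PFK7, PFK5, iPGAM1, iPGAM2 and cTPI. The response to auxin was also compared between conditions. With against without estradiol it differed for 3 members in amiR-TOR, 1 higher and 2 lower, beside 9.57% of all genes (2% higher and 7.58% lower), and for 9 in Col-0, 1 higher and 8 lower, beside 11.2% (4.49% higher and 6.73% lower). Leaving out single libraries gave 1 to 4 in amiR-TOR (1 without NPA 2 or 3, NPA with estradiol 2 or 3, IAA 1 or IAA with estradiol 2) and 4 to 15 in Col-0 (15 without NPA 1, and 4 without NPA 2 or 3, NPA with estradiol 3 or IAA with estradiol 2). Between genotypes without estradiol it differed for 3 members, PFPalpha2, PFPbeta1 and iPGAM1, all lower in amiR-TOR, beside 2.98% (1.41% higher and 1.56% lower); the count was 0 without any of 7 single libraries (Col-0 NPA 2 or 3, Col-0 IAA 3, amiR-TOR NPA 1, 2 or 3, or amiR-TOR IAA 3), 1 without Col-0 IAA 1 or amiR-TOR IAA 1, and 6 without Col-0 NPA 1 or Col-0 IAA 2. A p over the threshold does not show that the other members responded alike in both genotypes.

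**Figure D2:**
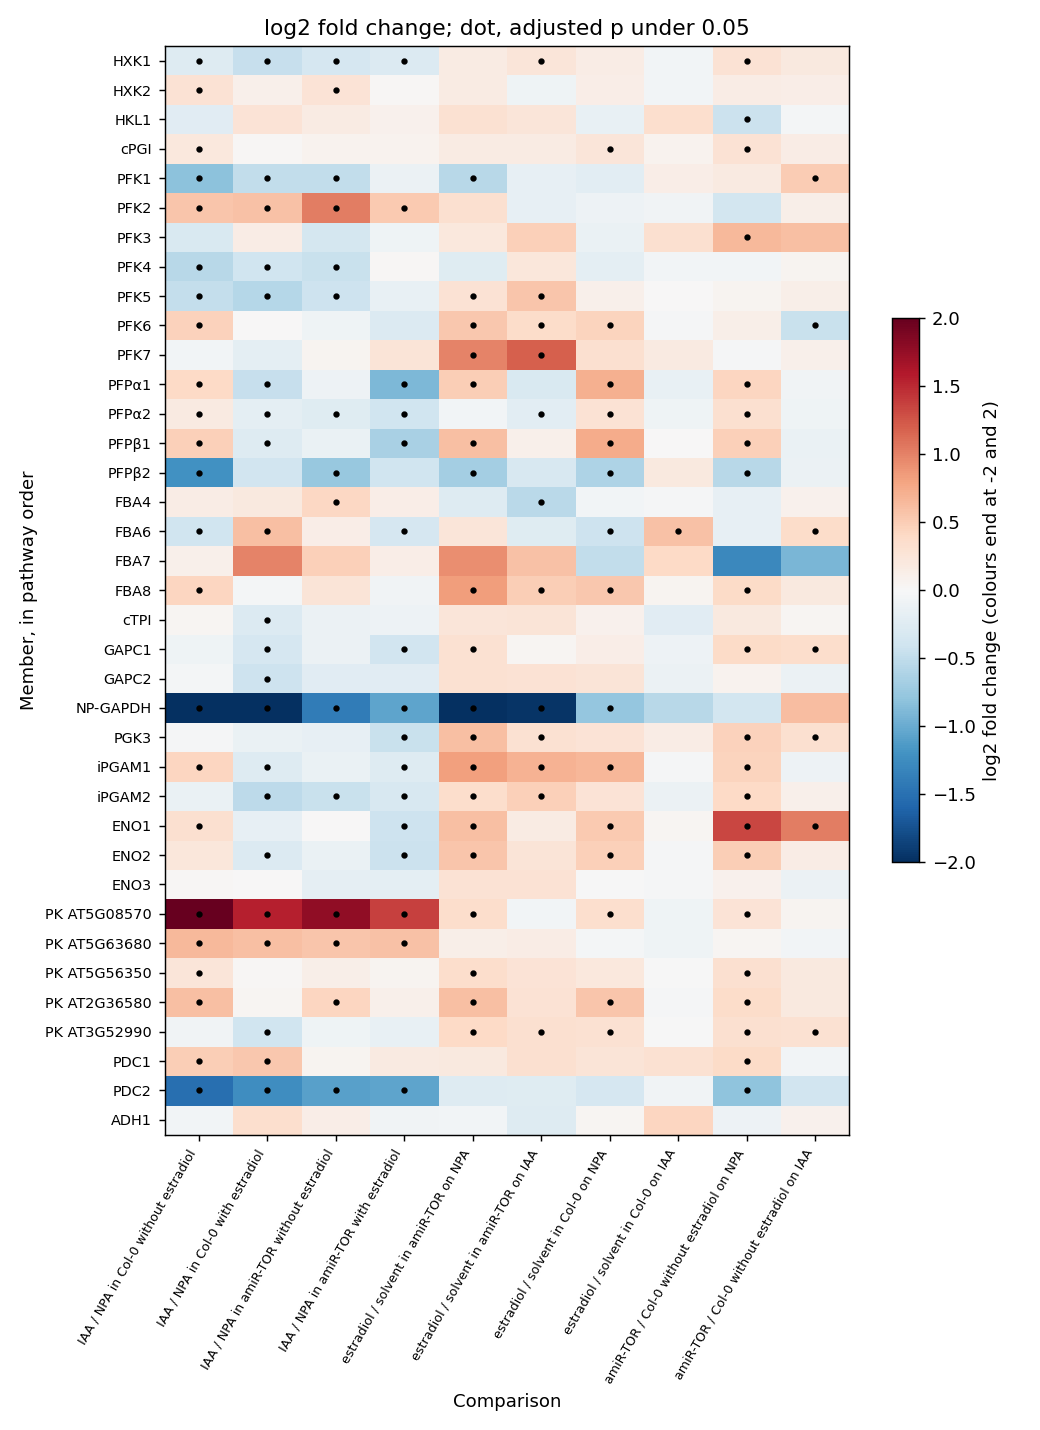
log2 fold change (colour, ends at -2 and 2) of the 37 tested members (rows, in pathway order) in the 10 comparisons of 2 groups (columns); a black dot marks an adjusted p under 0.05. Pyruvate kinase AT5G08570 is high and PDC2 and NP-GAPDH are low in all 4 auxin columns, while the column for estradiol in Col-0 on IAA holds 1 dot.

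The first steps showed small changes. HXK1, hexokinase and glucose sensor, fell with IAA in every setting of genotype and estradiol. In Col-0, HXK1 stood at 87.3, 94.2 and 86.3 CPM on NPA, 101, 104 and 93.5 on NPA with estradiol, 72.1, 78.8 and 72.9 on IAA, and 69.8, 71.8 and 74.6 on IAA with estradiol. In amiR-TOR, HXK1 stood at 109.8, 119 and 97.6 CPM on NPA, 126, 116 and 125 on NPA with estradiol, 88.1, 82.6 and 86.2 on IAA, and 92.2, 106 and 107 on IAA with estradiol. Each Col-0 library on IAA lay below each Col-0 library on NPA. Its log2 fold change with IAA was -0.26 ± 0.08, adjusted p = 0.0105, in Col-0 without estradiol, -0.46 ± 0.08 with it, and -0.34 ± 0.08 and -0.27 ± 0.08 in amiR-TOR. The first of these calls was lost in a fit of the compared groups alone, and the last without the libraries of high unmapped share or without amiR-TOR IAA with estradiol 1 (-0.20; over its alternatives adjusted p = 0.000211 to 0.0881). HXK2, its catalytic paralog, rose by 0.28 in Col-0 and 0.27 in amiR-TOR without estradiol, calls lost in 4 and 6 of 14 alternatives, among them leaving out Col-0 NPA 1 or Col-0 IAA 2, and amiR-TOR IAA 1, IAA 3 or NPA 3. HKL1, a hexokinase-like protein with 7.50% of its exonic 31-base words repeated elsewhere in the genome, was not called with IAA in any of the 4 comparisons. The cytosolic phosphoglucose isomerase (cPGI), which converts glucose 6-phosphate to fructose 6-phosphate, ranged from 66.2 to 106 CPM over all libraries.

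The phosphofructokinases, which phosphorylate fructose 6-phosphate with ATP, split by isoform. PFK7, a cytosolic isoform, rose with the knock-down and was not called with auxin. In Col-0, PFK7 stood at 104, 99.7 and 77.6 CPM on NPA, 117, 120.5 and 115 on NPA with estradiol, 82.2, 109 and 79.4 on IAA, and 119, 102 and 85.4 on IAA with estradiol. The amiR-TOR libraries held 97.3, 87.1 and 92.7 CPM on NPA, 162, 215 and 172 on NPA with estradiol, 91.3, 100.4 and 97.5 on IAA, and 182, 199 and 278 on IAA with estradiol. All 6 induced amiR-TOR libraries lay above every other library of the series. Estradiol in amiR-TOR raised PFK7 by log2 0.99 ± 0.15, adjusted p = 6.14e-05, on NPA and by 1.19 ± 0.16, adjusted p = 2.2e-05, on IAA, whereas in Col-0 the values were 0.33 ± 0.15 and 0.18 ± 0.15 and were not called. The difference between genotypes was 1.01 ± 0.22, adjusted p = 0.00606, on IAA and 0.66 ± 0.22, adjusted p = 0.107, on NPA; the first was called in all 20 alternatives and the second missed the threshold. The gene lies at chr5:22923804-22926963, plus strand. Its share of the summed phosphofructokinase level per length went from 27.6% ± 1.8 to 44.0% ± 4 on NPA and from 33.1% ± 0.9 to 49.6% ± 4.9 on IAA in amiR-TOR.

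The 250 bases upstream of the annotated start of PFK7 are shown because it was the phosphofructokinase with the largest response to the knock-down (RefSeq, TAIR10.1, chr5:22923554-22923803, plus strand). Capitals mark the letters of TGTCGG, a consensus of auxin response elements, on the opposite strand, 91 to 86 bases upstream of the start.
PFK7: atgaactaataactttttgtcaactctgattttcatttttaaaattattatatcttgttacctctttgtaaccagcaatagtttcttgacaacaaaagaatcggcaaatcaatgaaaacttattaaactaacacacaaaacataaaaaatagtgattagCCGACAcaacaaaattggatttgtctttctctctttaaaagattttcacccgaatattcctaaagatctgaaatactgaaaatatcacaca

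PFK1, PFK4 and PFK5 fell with auxin while PFK2 rose, except that in amiR-TOR with estradiol none of these falls was called. PFK1 and PFK7 are cytosolic isoforms, and PFK4 and PFK5 are plastidial. In Col-0, PFK1 stood at 76.7, 98.1 and 86.9 CPM on NPA, 73.8, 78.9 and 74.5 on NPA with estradiol, 47.7, 51.7 and 49.3 on IAA, and 55.3, 54.2 and 52.9 on IAA with estradiol. Those of amiR-TOR held 97.9, 107 and 91.6 CPM on NPA, 70.1, 60.7 and 71.9 on NPA with estradiol, 64.9, 79.5 and 66.8 on IAA, and 58.0, 66.7 and 62.8 on IAA with estradiol. The 6 Col-0 libraries on IAA lay below all 6 on NPA. IAA lowered PFK1, with a log2 fold change of -0.81 ± 0.10, adjusted p = 1.99e-07, in Col-0 and -0.50 ± 0.10 in amiR-TOR without estradiol, and with estradiol by -0.48 ± 0.10 in Col-0, while -0.11 ± 0.10 in amiR-TOR was not called. Estradiol in amiR-TOR on NPA lowered PFK1, with a log2 fold change of -0.55 ± 0.10, adjusted p = 0.000212. In Col-0 on NPA it went from 87.2 ± 10.7 to 75.7 ± 2.78 CPM with estradiol, not called. The difference between genotypes in that response was not called.

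In Col-0, PFK4 stood at 26.8, 31.6 and 28.6 CPM on NPA, 22.8, 27.7 and 25.2 on NPA with estradiol, 20.2, 21.4 and 18.0 on IAA, and 20.02, 18.8 and 18.7 on IAA with estradiol. For amiR-TOR the values were 26.8, 28.7 and 28.5 CPM on NPA, 25.6, 23.1 and 22.4 on NPA with estradiol, 21.3, 18.8 and 21.7 on IAA, and 22.6, 25.0 and 24.7 on IAA with estradiol. IAA lowered it, with a log2 fold change of -0.55 ± 0.10 in Col-0 and -0.44 ± 0.10 in amiR-TOR without estradiol, and the value in amiR-TOR with estradiol was 0.03 ± 0.10. The difference between those amiR-TOR responses, 0.46 ± 0.14, adjusted p = 0.0339, was lost in 10 of 20 alternatives, 9 of them single libraries left out (amiR-TOR NPA replicate 1, amiR-TOR NPA replicate 2, amiR-TOR NPA replicate 3, amiR-TOR NPA with estradiol replicate 2, amiR-TOR NPA with estradiol replicate 3, amiR-TOR IAA replicate 1, amiR-TOR IAA replicate 2, amiR-TOR IAA with estradiol replicate 2, amiR-TOR IAA with estradiol replicate 3).

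In Col-0, PFK5 stood at 69.5, 70.6 and 60.9 CPM on NPA, 71.0, 73.4 and 71.7 on NPA with estradiol, 51.8, 49.6 and 43.6 on IAA, and 45.6, 51.0 and 48.5 on IAA with estradiol. Across the amiR-TOR libraries PFK5 reached 69.3, 70.3 and 69.0 CPM on NPA, 81.6, 87.4 and 86.0 on NPA with estradiol, 50.4, 53.0 and 53.0 on IAA, and 69.2, 76.6 and 83.8 on IAA with estradiol. It was lower in every Col-0 library on IAA than on NPA, and the amiR-TOR libraries on IAA with estradiol lay above all other IAA libraries. IAA lowered PFK5, with a log2 fold change of -0.47 ± 0.08, adjusted p = 4.01e-05, in Col-0. In amiR-TOR with estradiol PFK5 went from 85.0 ± 3.02 CPM on NPA to 76.5 ± 7.29 on IAA, not called. Estradiol raised it by 0.29 ± 0.08 on NPA and 0.55 ± 0.09 on IAA in amiR-TOR, and the difference between genotypes on IAA was 0.55 ± 0.12, adjusted p = 0.00624. PFK2 rose with IAA in all 4 comparisons, by 0.55 ± 0.13, 0.58 ± 0.13, 1.02 ± 0.14 and 0.53 ± 0.13, from a mean of 10.96 ± 0.126 to 16.1 ± 1.37 CPM in Col-0 without estradiol. PFK3 was not called with IAA in any of the 4, and PFK6 rose in 1 of them (0.47 ± 0.12).

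PFP is built of regulatory alpha and catalytic beta subunits. The response of PFPalpha1 to auxin differed with and without estradiol in both genotypes. In Col-0, PFPalpha1 stood at 95.8, 86.0 and 84.5 CPM on NPA, 144, 139 and 155 on NPA with estradiol, 129.6, 110.2 and 112 on IAA, and 110.2, 104 and 104 on IAA with estradiol. In amiR-TOR, PFPalpha1 stood at 112, 121 and 125 CPM on NPA, 162, 174 and 169 on NPA with estradiol, 111, 112 and 111 on IAA, and 69.1, 91.7 and 109 on IAA with estradiol. On NPA the libraries with estradiol lay above those without in both genotypes. Estradiol raised PFPalpha1 on NPA by 0.72 ± 0.11, adjusted p = 0.000264, in Col-0 and by 0.50 ± 0.11, adjusted p = 0.00173, in amiR-TOR. IAA raised it by 0.40 ± 0.11 in Col-0 without estradiol and lowered it, with a log2 fold change of -0.46 ± 0.11 with it; the difference of these, -0.86 ± 0.16, adjusted p = 0.0024, was called in all 20 alternatives. In amiR-TOR the same difference was -0.81 ± 0.16, adjusted p = 0.00228, again in every alternative.

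In Col-0, PFPbeta1 stood at 156, 131 and 128 CPM on NPA, 242, 226 and 229 on NPA with estradiol, 189, 184 and 205 on IAA, and 193, 188 and 202 on IAA with estradiol. The amiR-TOR libraries held 194, 193 and 194 CPM on NPA, 277, 306 and 302 on NPA with estradiol, 181, 181 and 166 on IAA, and 153, 191 and 223 on IAA with estradiol. On NPA every library with estradiol lay above every one without, in both genotypes. Estradiol on NPA raised it by 0.75 ± 0.11, adjusted p = 0.000123, in Col-0 and 0.61 ± 0.11, adjusted p = 0.000173, in amiR-TOR, and the difference between genotypes was -0.14 ± 0.15 and not called.

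PFPbeta2, whose RefSeq name is MEE51, fell with auxin without estradiol, and with estradiol on NPA in both genotypes. In Col-0, PFPbeta2 stood at 64.6, 77.0 and 87.9 CPM on NPA, 58.1, 54.0 and 37.6 on NPA with estradiol, 28.2, 37.0 and 34.2 on IAA, and 39.99, 38.9 and 35.4 on IAA with estradiol. Those of amiR-TOR held 53.6, 52.0 and 50.9 CPM on NPA, 31.2, 37.999 and 28.9 on NPA with estradiol, 35.8, 22.1 and 33.2 on IAA, and 29.1, 27.9 and 17.3 on IAA with estradiol. The 3 Col-0 libraries on NPA without estradiol were the highest of the series. IAA lowered PFPbeta2, with a log2 fold change of -1.21 ± 0.19, adjusted p = 1.1e-05, in Col-0, and estradiol lowered it, with a log2 fold change of -0.67 ± 0.19, adjusted p = 0.00945, in amiR-TOR on NPA. In Col-0 on NPA, with no microRNA, the value with estradiol was -0.62 ± 0.19, adjusted p = 0.0221, a call lost without Col-0 NPA 2 (-0.61), Col-0 NPA 3 (-0.51) or Col-0 NPA with estradiol 3 (-0.45), and the difference between genotypes, -0.05 ± 0.27, was not called. It was not called with estradiol in amiR-TOR on IAA (-0.32 ± 0.19), nor with IAA in the presence of estradiol (-0.39 ± 0.19 in Col-0 and -0.41 ± 0.19 in amiR-TOR). Its share of the summed beta subunits per length went from 35.7% ± 5.8 to 14.7% ± 1.9 with IAA in Col-0. PFPalpha2 ranged from 59.0 to 90.7 CPM over all libraries.

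Among the aldolases, which split fructose 1,6-bisphosphate, FBA8 made up 78.2% ± 3.6 of the summed level per length in Col-0 on NPA and 89.0% ± 0.52 in amiR-TOR on NPA with estradiol. In Col-0, FBA8 stood at 737, 616 and 631 CPM on NPA, 955, 983 and 945 on NPA with estradiol, 808, 994 and 883 on IAA, and 989.7, 941 and 861 on IAA with estradiol. For amiR-TOR the values were 876, 836 and 863 CPM on NPA, 1440.1, 1583 and 1551 on NPA with estradiol, 958, 1189 and 944 on IAA, and 1234, 1403 and 1724 on IAA with estradiol. Every amiR-TOR library with estradiol was above every one without on the same medium. Estradiol in amiR-TOR raised FBA8 by 0.83 ± 0.12, adjusted p = 2.92e-05, on NPA and 0.50 ± 0.12, adjusted p = 0.006, on IAA, the latter lost without amiR-TOR IAA with estradiol 3 (0.36; over its alternatives adjusted p = 0.000676 to 0.06). Col-0 showed 0.54 ± 0.12 on NPA and 0.06 ± 0.12 on IAA, and neither difference between genotypes was called.

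FBA6 was the only member called in the test of genotype by estradiol by auxin, which asks whether the effect of estradiol on the auxin response differed between genotypes (-1.47 ± 0.23, adjusted p = 0.00143), beside 0.719% of all genes, and that call held in all 31 alternatives. In Col-0, FBA6 stood at 152, 165 and 205 CPM on NPA, 134, 132 and 125 on NPA with estradiol, 119.9, 147 and 129 on IAA, and 191, 209 and 192 on IAA with estradiol. Across the amiR-TOR libraries FBA6 reached 173, 158 and 134 CPM on NPA, 176, 199 and 173 on NPA with estradiol, 186, 158 and 167 on IAA, and 150.2, 133 and 149 on IAA with estradiol. In Col-0 the libraries on IAA with estradiol were above those on IAA without it, and the amiR-TOR libraries went the other way. IAA changed it by -0.40 ± 0.11 without and 0.60 ± 0.11 with estradiol in Col-0, both called, and by 0.14 ± 0.11, not called, and -0.34 ± 0.11, called, in amiR-TOR. The first of these was lost without Col-0 NPA 3 (-0.26), and the last without amiR-TOR IAA with estradiol 2 (-0.29) or NPA with estradiol 2 (-0.28). Of the 5 libraries with a high unmapped share, 2 are in Col-0 IAA with estradiol. Without these 5 that group keeps only replicate 1, so that alternative rests on a single library there.

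Triose-phosphate isomerase, which interconverts the triose phosphates, differed between genotypes in its response to estradiol on IAA by 0.48 ± 0.14, adjusted p = 0.0364. That call was lost in 12 of 20 alternatives (adjusted p = 0.00702 to 0.0998), 9 of them single libraries left out (Col-0 IAA replicate 1, Col-0 IAA replicate 3, Col-0 IAA with estradiol replicate 1, Col-0 IAA with estradiol replicate 2, amiR-TOR IAA replicate 2, amiR-TOR IAA replicate 3, amiR-TOR IAA with estradiol replicate 1, amiR-TOR IAA with estradiol replicate 2, amiR-TOR IAA with estradiol replicate 3).

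GAPC1 and GAPC2, the abundant phosphorylating dehydrogenases, showed small changes. In Col-0, GAPC1 stood at 1496, 1453 and 1632 CPM on NPA, 1699.8, 1709.6 and 1626 on NPA with estradiol, 1299, 1580.0 and 1432 on IAA, and 1511, 1281 and 1204 on IAA with estradiol. In amiR-TOR, GAPC1 stood at 2076, 2015 and 1861 CPM on NPA, 2431, 2361 and 2549 on NPA with estradiol, 1755, 2069 and 1662 on IAA, and 1748, 1828 and 2039 on IAA with estradiol. The amiR-TOR libraries on NPA with estradiol were the highest group. With IAA the values were -0.09 ± 0.11 in Col-0 and -0.12 ± 0.11 in amiR-TOR without estradiol, neither called, and -0.33 ± 0.11 and -0.39 ± 0.11 with it, both called, the former lost without Col-0 IAA with estradiol 3. Estradiol in amiR-TOR on NPA raised it by 0.30 ± 0.11, adjusted p = 0.0385, a call lost in 8 of 14 alternatives, including each single library left out.

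In Col-0, GAPC2 stood at 1309, 1163 and 1225 CPM on NPA, 1569.8, 1389 and 1437 on NPA with estradiol, 1188, 1167 and 1233 on IAA, and 1083, 1091 and 1126 on IAA with estradiol. The amiR-TOR libraries held 1324, 1169.6 and 1384 CPM on NPA, 1379, 1818 and 1571 on NPA with estradiol, 1155, 1169 and 1002 on IAA, and 1256, 1220.0 and 1587 on IAA with estradiol. With estradiol present, IAA lowered GAPC2 in Col-0, with a log2 fold change of -0.41 ± 0.12, adjusted p = 0.00389. It was not called in any other comparison.

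NP-GAPDH (ALDH11A3), a cytosolic enzyme that oxidises glyceraldehyde 3-phosphate without making ATP and yields NADPH, fell in both kinds of comparison. In Col-0, NP-GAPDH stood at 26.7, 20.9 and 34.6 CPM on NPA, 18.5, 15.6 and 14.4 on NPA with estradiol, 4.35, 7.65 and 3.94 on IAA, and 4.12, 3.91 and 2.57 on IAA with estradiol. Those of amiR-TOR held 18.1, 23.5 and 21.9 CPM on NPA, 5.44, 4.66 and 2.71 on NPA with estradiol, 9.71, 7.82 and 6.49 on IAA, and 2.93, 1.37 and 1.90 on IAA with estradiol. The Col-0 and amiR-TOR libraries on NPA without estradiol overlapped and, apart from Col-0 NPA with estradiol 1, lay above all others, and those on IAA with estradiol had the lowest mean in each genotype, overlapping in Col-0 with IAA alone and in amiR-TOR with NPA with estradiol. IAA lowered it, with a log2 fold change of -2.39 ± 0.28, adjusted p = 1.8e-07, in Col-0, -2.17 ± 0.29 with estradiol, -1.40 ± 0.27 in amiR-TOR and -1.05 ± 0.31 in amiR-TOR with estradiol, the last lost without amiR-TOR IAA with estradiol 2 or NPA with estradiol 1. Estradiol in amiR-TOR lowered it, with a log2 fold change of -2.32 ± 0.28, adjusted p = 5.48e-06, on NPA and -1.97 ± 0.31, adjusted p = 0.000169, on IAA, both in every alternative. In Col-0 on NPA, with no microRNA, estradiol also lowered it, from 27.4 ± 6.88 to 16.1 ± 2.1 CPM. That call was lost in at least 1 alternative. The difference between genotypes in that response was -1.55 ± 0.38, adjusted p = 0.0284, on NPA and -1.41 ± 0.43, adjusted p = 0.0425, on IAA, calls lost in 7 and 11 of 20 alternatives, among them the single libraries Col-0 NPA replicate 2, Col-0 NPA with estradiol replicate 1, Col-0 NPA with estradiol replicate 2, amiR-TOR NPA replicate 2, amiR-TOR NPA replicate 3, amiR-TOR NPA with estradiol replicate 2, amiR-TOR NPA with estradiol replicate 3 on NPA, and Col-0 IAA replicate 1, Col-0 IAA replicate 3, Col-0 IAA with estradiol replicate 1, Col-0 IAA with estradiol replicate 2, amiR-TOR IAA replicate 1, amiR-TOR IAA replicate 2, amiR-TOR IAA with estradiol replicate 2, amiR-TOR IAA with estradiol replicate 3 on IAA. Over the same groups the summed green markers were 162 ± 5.28 CPM in amiR-TOR on NPA and 39.5 ± 17.5 with estradiol, 95.5 ± 20.5 on IAA and 28.6 ± 5.54 with estradiol; none of the 6 was at 0 in every library, and their part in the fall of NP-GAPDH was not tested. The gene lies at chr2:10326918-10330048, minus strand.

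Its upstream sequence is shown as that of the member with the largest decrease in both comparisons (RefSeq, TAIR10.1, chr2:10330049-10330298, minus strand). The capitals are AAACAAA, the anaerobic consensus, on the opposite strand, at 83 to 77 and 30 to 24 bases upstream of the start.
NP-GAPDH: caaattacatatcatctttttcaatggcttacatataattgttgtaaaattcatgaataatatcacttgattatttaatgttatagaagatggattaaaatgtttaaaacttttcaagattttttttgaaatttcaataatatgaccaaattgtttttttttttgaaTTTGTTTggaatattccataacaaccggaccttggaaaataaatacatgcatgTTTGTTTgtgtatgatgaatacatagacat

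Several enzymes from phosphoglycerate kinase to enolase rose with estradiol in amiR-TOR. iPGAM1 and iPGAM2, the cofactor-independent phosphoglycerate mutases, did so together. On NPA no difference between genotypes in that response was called for any of these enzymes. In Col-0, iPGAM1 stood at 211, 186 and 186 CPM on NPA, 312, 299 and 309.7 on NPA with estradiol, 254, 274 and 255 on IAA, and 249, 259 and 264 on IAA with estradiol. For amiR-TOR the values were 267, 268 and 261 CPM on NPA, 444, 497 and 467 on NPA with estradiol, 259, 223 and 245 on IAA, and 353, 375 and 445 on IAA with estradiol. The 6 induced amiR-TOR libraries lay above all others of the series. Estradiol in amiR-TOR raised iPGAM1 by 0.83 ± 0.09, adjusted p = 1.94e-06, on NPA and 0.69 ± 0.09, adjusted p = 2.85e-05, on IAA. In Col-0 it changed by 0.66 ± 0.09 on NPA, called, and -0.02 ± 0.09 on IAA; the difference between genotypes was 0.71 ± 0.13, adjusted p = 0.00179, on IAA, in every alternative, and 0.17 ± 0.13, not called, on NPA.

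In Col-0, iPGAM2 stood at 147, 171 and 157 CPM on NPA, 195, 185 and 192 on NPA with estradiol, 152, 140.0 and 139.7 on IAA, and 134, 139 and 127 on IAA with estradiol. Across the amiR-TOR libraries iPGAM2 reached 219, 208 and 202 CPM on NPA, 245, 271 and 283 on NPA with estradiol, 162, 157 and 143 on IAA, and 185, 209.9 and 245 on IAA with estradiol. On each medium the amiR-TOR libraries with estradiol lay above those without. Estradiol raised it there by 0.35 ± 0.10 on NPA and 0.47 ± 0.10 on IAA, with a difference between genotypes on IAA of 0.58 ± 0.14, adjusted p = 0.0104, in every alternative. PGK3, phosphoglycerate kinase, went from 571 ± 57.6 to 862 ± 55.5 CPM in amiR-TOR on NPA (0.60 ± 0.10, adjusted p = 0.00018). In Col-0 on NPA PGK3 went from 413 ± 5.42 to 496 ± 22.8 CPM with estradiol and was not called. ENO2, the main enolase, went from 1144 ± 28 to 1679.7 ± 140 CPM in amiR-TOR on NPA (0.55 ± 0.10, adjusted p = 0.000314). In Col-0 on NPA ENO2 went from 811 ± 49.5 to 1127 ± 36.8 CPM (0.48 ± 0.10, adjusted p = 0.00276). ENO1, the plastidial enolase, differed most between uninduced genotypes: its Col-0 libraries on NPA held 113, 83.0 and 81.2 CPM and those of amiR-TOR 233, 232 and 232, a difference of 1.33 ± 0.11, adjusted p = 4.24e-08, and 1.03 ± 0.11, adjusted p = 1.44e-06, on IAA. Without estradiol, every amiR-TOR library lay above every Col-0 library. ENO3 was not called in any of the 10 comparisons of 2 groups.

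**Figure D3:**
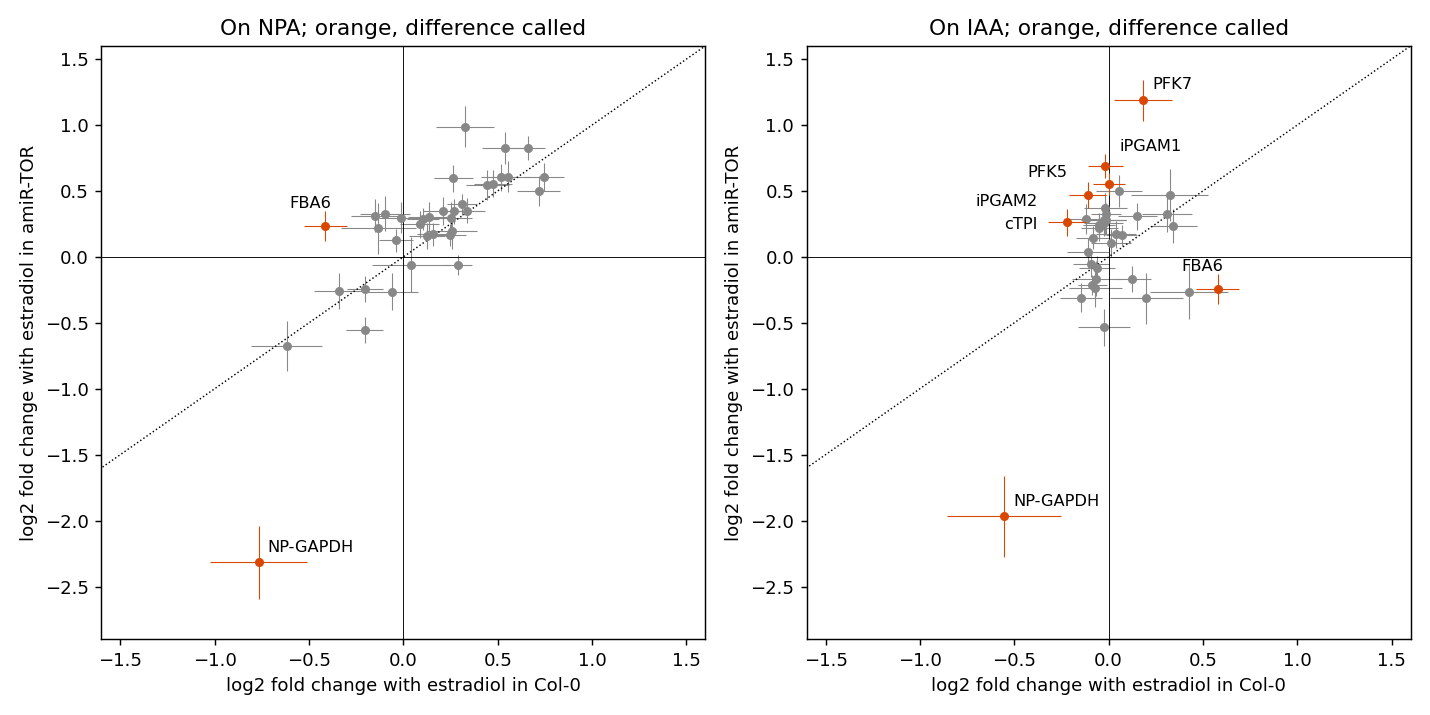
log2 fold change with estradiol in Col-0 (x axis) and in amiR-TOR (y axis) for 36 members, on NPA (left) and on IAA (right), with SE bars; the dotted line marks equal change and orange points have a called difference between genotypes. On NPA most points lie near the line, and on IAA PFK7, iPGAM1, PFK5 and iPGAM2 lie above it and NP-GAPDH and FBA6 below.

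Pyruvate kinase, which makes pyruvate and ATP, gave the clearest increase with auxin, carried by AT5G08570 of the 5 cytosolic isoforms. In Col-0, AT5G08570 stood at 101, 87.1 and 89.1 CPM on NPA, 119.6, 115 and 115 on NPA with estradiol, 333, 399.9 and 366 on IAA, and 395, 317 and 319 on IAA with estradiol. In amiR-TOR, AT5G08570 stood at 111, 111 and 112 CPM on NPA, 134, 151 and 141 on NPA with estradiol, 375, 393 and 378 on IAA, and 379, 343 and 382 on IAA with estradiol. All 12 IAA libraries lay above all 12 NPA libraries. The log2 fold change with IAA was 1.99 ± 0.10, adjusted p = 8.5e-14, in Col-0, 1.56 ± 0.10 with estradiol, 1.78 ± 0.10 in amiR-TOR and 1.37 ± 0.10 in amiR-TOR with estradiol, all called in every alternative. Its share of the 5 isoforms per length rose from 17.9% ± 1 to 40.3% ± 0.8 in Col-0 and from 17.8% ± 0.4 to 38.6% ± 1.3 in amiR-TOR. The gene lies at chr5:2778000-2780581, plus strand.

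The upstream sequence of AT5G08570 is shown as that of the member with the largest increase with auxin (RefSeq, TAIR10.1, chr5:2777750-2777999, plus strand). Capitals mark AAACAAA on the opposite strand, 107 to 101 bases upstream of the start, and the palindromic G-box CACGTG, 12 to 7 bases upstream.
AT5G08570: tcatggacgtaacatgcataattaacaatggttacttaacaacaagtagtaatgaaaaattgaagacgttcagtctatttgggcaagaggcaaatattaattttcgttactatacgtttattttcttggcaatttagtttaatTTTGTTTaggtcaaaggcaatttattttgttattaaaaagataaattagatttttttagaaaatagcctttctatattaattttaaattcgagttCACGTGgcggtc

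In Col-0, AT5G63680 stood at 80.9, 80.7 and 72.7 CPM on NPA, 77.5, 76.5 and 74.1 on NPA with estradiol, 117, 129.9 and 119.6 on IAA, and 134, 104 and 109 on IAA with estradiol. The amiR-TOR libraries held 80.9, 80.9 and 78.4 CPM on NPA, 89.7, 83.1 and 89.1 on NPA with estradiol, 116, 123 and 115 on IAA, and 122, 129.7 and 140.2 on IAA with estradiol. Every IAA library lay above every NPA library. IAA raised it by 0.65 ± 0.09, adjusted p = 1.29e-06, in Col-0 and 0.56 ± 0.09 in amiR-TOR, and its values with estradiol in amiR-TOR, 0.12 ± 0.09 on NPA and 0.15 ± 0.09 on IAA, were not called. AT2G36580 rose with IAA in Col-0 by 0.61 ± 0.12 and with estradiol on NPA by 0.55 ± 0.12 in Col-0 and 0.61 ± 0.12 in amiR-TOR. AT3G52990 rose with estradiol in amiR-TOR by 0.40 ± 0.08 on NPA and 0.32 ± 0.08 on IAA, the latter lost in a fit of the compared groups alone. It also rose with estradiol in Col-0 on NPA, by 0.31 ± 0.08, a call lost in 3 of 14 alternatives (among them without Col-0 NPA 3 or Col-0 NPA with estradiol 3), and no difference between genotypes was called.

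At the fermentation branch PDC2 fell with auxin in both genotypes, PDC1 rose in Col-0, and ADH1 was low throughout. In Col-0, PDC2 stood at 112, 137 and 151 CPM on NPA, 106, 105 and 105 on NPA with estradiol, 44.7, 56.2 and 40.3 on IAA, and 52.7, 46.7 and 34.7 on IAA with estradiol. Those of amiR-TOR held 75.4, 79.2 and 75.0 CPM on NPA, 70.1, 53.9 and 67.8 on NPA with estradiol, 37.9, 38.3 and 32.3 on IAA, and 30.4, 29.9 and 31.5 on IAA with estradiol. In each genotype every IAA library lay below every NPA library. IAA lowered PDC2, with a log2 fold change of -1.51 ± 0.14, adjusted p = 2.55e-09, in Col-0, -1.24 ± 0.14 with estradiol, -1.09 ± 0.14 in amiR-TOR and -1.06 ± 0.14 in amiR-TOR with estradiol, all called in every alternative. The uninduced amiR-TOR line lay below Col-0 on NPA, with a log2 fold change of -0.80 ± 0.14, adjusted p = 0.000367.

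In Col-0, PDC1 stood at 37.5, 39.4 and 30.2 CPM on NPA, 42.8, 46.6 and 38.8 on NPA with estradiol, 47.1, 55.5 and 48.4 on IAA, and 70.4, 58.9 and 57.6 on IAA with estradiol. For amiR-TOR the values were 44.8, 53.8 and 40.9 CPM on NPA, 60.3, 42.6 and 57.0 on NPA with estradiol, 47.5, 52.1 and 46.1 on IAA, and 52.4, 65.1 and 64.3 on IAA with estradiol. The Col-0 libraries on IAA lay above those on NPA, and the amiR-TOR libraries on IAA overlapped with those on NPA. IAA raised PDC1 by 0.49 ± 0.14, adjusted p = 0.00309, in Col-0 and 0.55 ± 0.13, adjusted p = 0.00135, with estradiol. In amiR-TOR the values were 0.06 ± 0.14 and 0.19 ± 0.13, not called. The difference between genotypes in the response of PDC1 to IAA without estradiol was not called either. Its share of the summed decarboxylases per length went from 21.8% ± 4.4 to 52.6% ± 2.5 with IAA in Col-0.

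ADH1, the only classical alcohol dehydrogenase of the list, was not called in any of the 16 comparisons. In Col-0, ADH1 stood at 8.12, 7.46 and 9.79 CPM on NPA, 8.58, 7.34 and 9.98 on NPA with estradiol, 7.95, 9.37 and 7.19 on IAA, and 12.1, 11.4 and 9.26 on IAA with estradiol. Across the amiR-TOR libraries ADH1 reached 10.00, 7.78 and 5.86 CPM on NPA, 9.51, 5.83 and 7.38 on NPA with estradiol, 11.02, 7.22 and 7.25 on IAA, and 6.62, 7.56 and 7.27 on IAA with estradiol. The ranges of all groups overlapped apart from the pair of Col-0 on IAA with estradiol and amiR-TOR on IAA with estradiol.

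**Figure D4:**
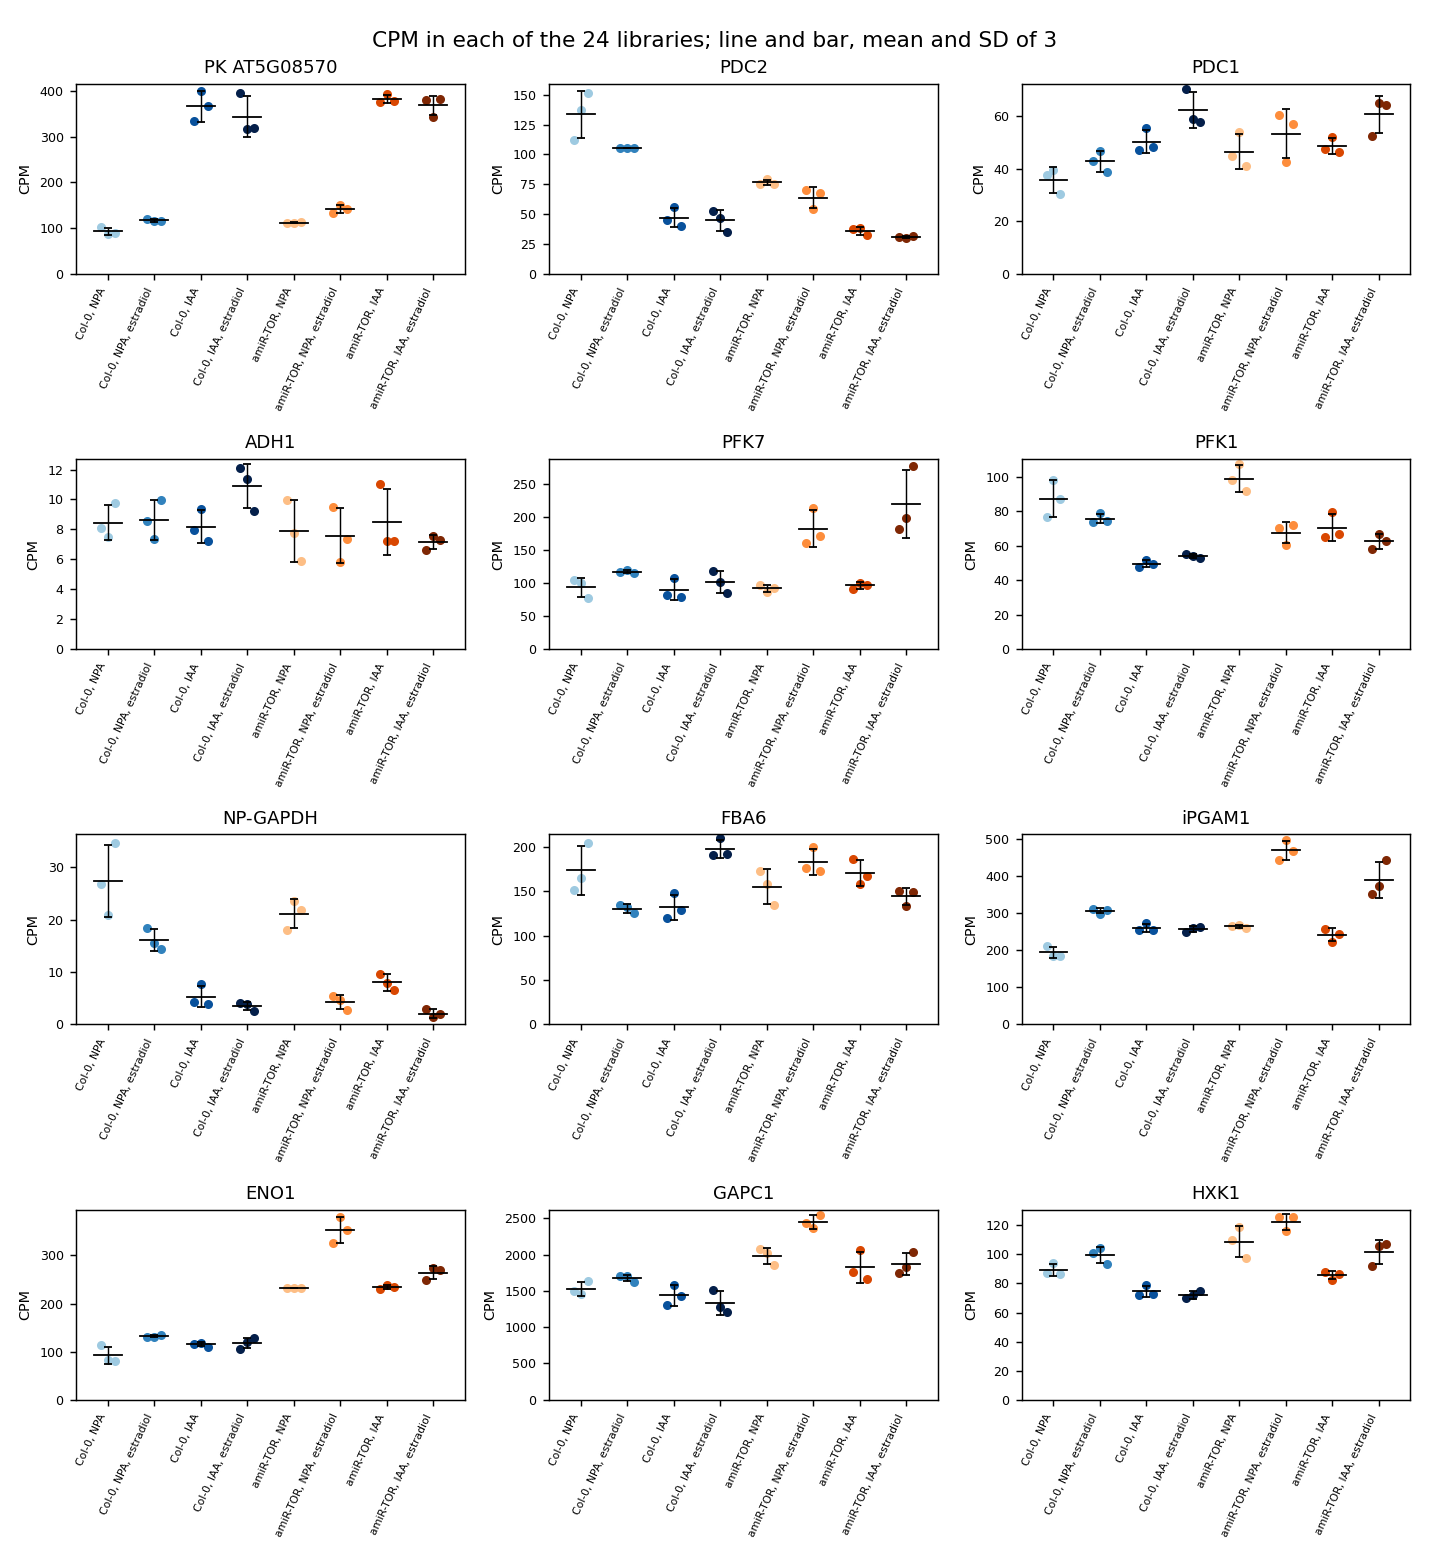
CPM of 12 members in each of the 24 libraries (points, coloured by group; y axis from 0), with the group mean as a line and the SD of 3 libraries as a bar. Pyruvate kinase AT5G08570 separates all IAA from all NPA libraries, PDC2 is lower on IAA within each genotype, and ADH1 shows no such separation.

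**Figure D5:**
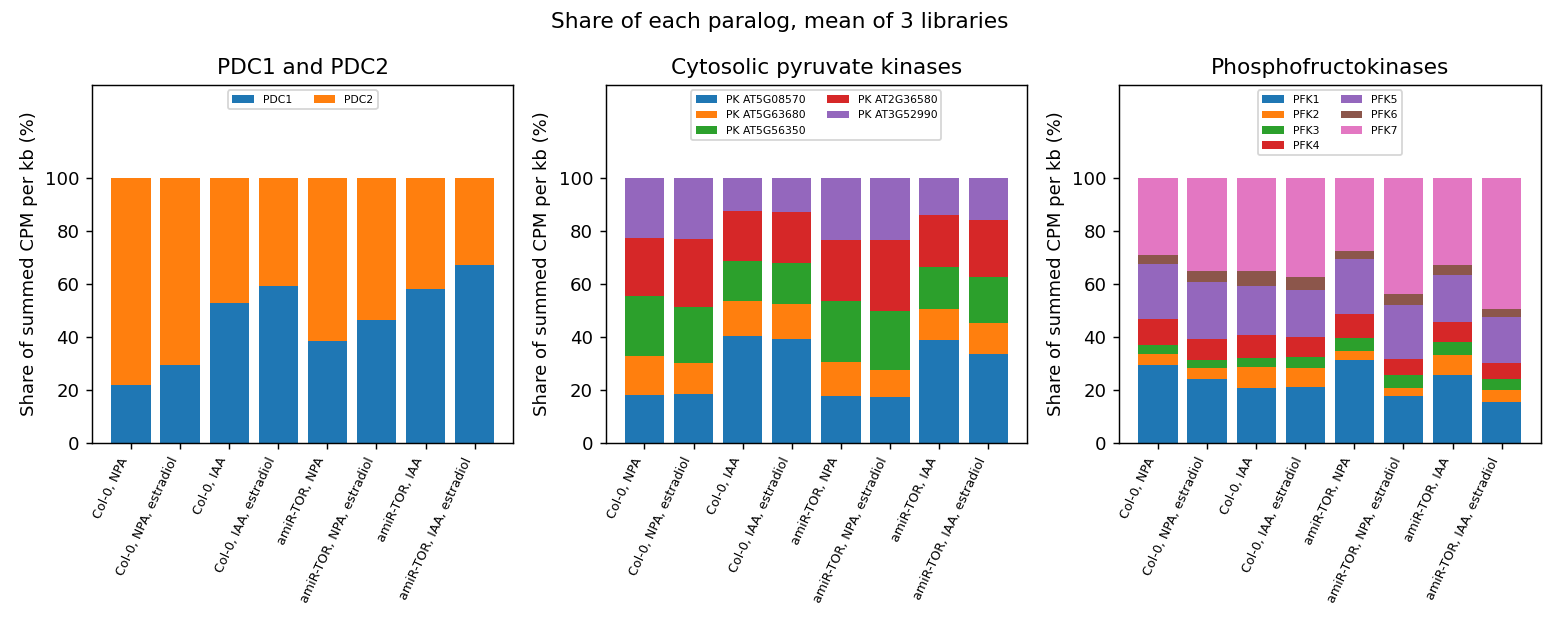
Share of each paralog in the summed CPM per kb of its family (y axis, percent; means of 3 libraries by group) for pyruvate decarboxylase, cytosolic pyruvate kinase and phosphofructokinase. PDC1 and pyruvate kinase AT5G08570 take a larger share on IAA in both genotypes, and PFK7 with estradiol in amiR-TOR. In amiR-TOR the level of PDC1 itself was not called with IAA, while that of PDC2 fell.

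Genes outside the list give the surroundings of these changes. Of 14 genes known to rise when oxygen is short, IAA raised 9 and lowered 1 in Col-0, and raised 9, 7 and 6 in Col-0 with estradiol, amiR-TOR and amiR-TOR with estradiol, where none fell; their median in Col-0 without estradiol was 1.08, beside -0.04 for all genes, and the shares of all genes called higher are those given above. Examples in Col-0 were LBD41, a transcription factor, at 2.68 ± 0.24, sucrose synthase SUS4 at 1.67 ± 0.21, the phytoglobin PGB1 at 1.56 ± 0.26 and sucrose synthase SUS1 at 1.27 ± 0.13. PDC1 and ADH1, classical members of that response, stood at 0.49 ± 0.14 and -0.05 ± 0.21. Of the group VII ethylene response factors that activate it, the 3 RAP2 genes fell with IAA in Col-0 without estradiol. RAP2.12 stood at -0.41 ± 0.10, RAP2.2 at -0.70 ± 0.10 and RAP2.3 at -0.78 ± 0.17. HRE1 and HRE2, of the same group, are counted with the 14 low-oxygen genes. Of 12 plastid isoforms of the glycolytic steps, 4 rose and 2 fell with IAA in Col-0, beside 31.3% of all genes higher and 32% lower, among them PKp3, a subunit of the plastid pyruvate kinase, at 1.06 ± 0.10. Of 8 neighbours of the fermentation branch, none rose and 2 fell in Col-0 with IAA, beside the same shares: PDC3, another decarboxylase gene, at -1.54 ± 0.28, and the aldehyde dehydrogenase ALDH2B7 at -0.49 ± 0.17, the latter lost in 2 of 14 alternatives. Lactate dehydrogenase LDH1 rose with the knock-down by 0.40 ± 0.12 on NPA and 0.38 ± 0.12 on IAA, calls lost in 1 and 5 of 14 alternatives. With estradiol in amiR-TOR on NPA, 4 low-oxygen genes rose and 1 fell, 4 plastid isoforms rose and none fell, and 3 fermentation neighbours rose and 1 fell, beside 20% of all genes higher and 13% lower. On IAA these counts were 2 and 3, 1 and 1, and 2 and 2, beside 8.99% and 9.9%. Such counts do not separate the knock-down from estradiol itself. LDH1 and the alanine aminotransferase AlaAT1 are in both the low-oxygen and the fermentation list and are counted in each. RAP2.3 fell with estradiol in amiR-TOR on both media (-0.93 ± 0.18 on NPA and -1.16 ± 0.18 on IAA). In Col-0 RAP2.3 stood at 50.1, 36.3 and 53.3 CPM on NPA and 39.5, 36.0 and 30.3 with estradiol. On IAA its Col-0 values were 29.6, 26.4 and 25.4 CPM, and 28.4, 25.2 and 24.5 with estradiol.

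The 250 bases before the start of each gene were searched on both strands for 6 motifs. The auxin response element TGTCTC occurred in 18.4% of the 38 windows and in 10.9% of 27561 such windows of the genome, and its variant TGTCGG in 7.89% and 4.16%. The G-box CACGTG occurred in 10.5% against 6.46%, the telo-box AAACCCTA in 2.63% against 4.47%, the site II element TGGGCC in 13.2% against 13.6%, and the anaerobic consensus AAACAAA in 39.5% against 32.9%. A match describes the letters of the window only.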

How the data were processed

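RNA was sequenced from 24 root libraries in 8 groups of 3. The authors deposited raw counts per gene for each library, in the layout of STAR gene counts, with 4 summary lines that were left out of library sizes and tests. The submitters' processing notes name STAR 2.5.2b, DESeq2 and TAIR10, without roles; aligner settings and the annotation are not given in the sources used here. The counts in column 4, the strand that held 95.4% to 96.3% of strand-assigned reads, were used. Depth ranged from 8589833 to 40494513 gene counts per library, which sets the precision of low genes such as FBA5 and FBA7.

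All 32833 loci were filtered with filterByExpr, which left 21290, and scaled with TMM (0.957 to 1.04). One edgeR 4.0.16 quasi-likelihood fit (R 4.3.3, limma 3.58.1) over all 8 groups, with Benjamini-Hochberg adjustment over all genes of each of 16 comparisons, gave every log2 fold change and adjusted p. CPM uses TMM-scaled library sizes. The procedure was tested on simulated data. Alternatives were DESeq2 1.42.0, RLE scaling, no filter, unstranded counts, a fit of only the groups compared, the 5 libraries with over 20% unmapped reads left out or given a covariate, the replicate number as a block, and each library left out. Tables and plots used Python 3.11.15, numpy 2.4.6, pandas 2.3.3, scipy 1.17.1 and matplotlib 3.10.9.

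Values in every library are given for ADH1, PDC1, PDC2, GAPC1, GAPC2 and HXK1, for the 6 called members with the largest change in the auxin response of Col-0 without estradiol and in the knock-down on NPA, and for up to 6 called members in 4 of the interactions, each averaging at least 1 CPM. The members, lists and this rule were chosen with earlier results of these data known. All 38 members and 32547 of all loci matched RefSeq's TAIR10.1 table, from which positions, exon lengths and upstream windows come. Reads that multimap or are ambiguous were not used, so paralogs that share sequence, such as HKL1, GAPC1, GAPC2 and PDC1 (2.38% to 7.50% of their exonic 31-base words occur elsewhere), are less certain.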

Additional observations from a re-analysis of the deposited data

Results flagged for a closer look

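These results drew attention because a test of a difference between 2 effects was itself called; the values are differences of log2 fold changes, and their causes were not tested. In the response to estradiol, amiR-TOR differed from Col-0 on NPA by 0.65 for FBA6 and -1.55 for NP-GAPDH. On IAA it differed by 0.55 for PFK5, 1.01 for PFK7, -0.82 for FBA6, 0.48 for cTPI, -1.41 for NP-GAPDH, 0.71 for iPGAM1 and 0.58 for iPGAM2. Among the low-oxygen genes the same difference on IAA was -2.17 for SUS4, -0.78 for the transcription factor HRE1, -1.53 for the oxidase PCO1 and -1.26 for the ethylene receptor ETR2.

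The response to IAA differed with and without estradiol in amiR-TOR by 0.46 for PFK4, -0.81 for PFPalpha1, -0.51 for PFPbeta1, -0.60 for SUS1 and -0.76 for ETR2. In Col-0, which carries no microRNA, it differed by -0.86 for PFPalpha1, -0.38 for PFPalpha2, -0.73 for PFPbeta1, 0.99 for FBA6, -0.68 for iPGAM1, -0.48 for ENO1, -0.50 for ENO2, -0.43 for pyruvate kinase AT5G08570 and -0.58 for AT2G36580, and by 0.92 for SUS4, 1.08 for HRE1 and 0.92 for ETR2. Without estradiol the response to IAA differed between genotypes by -0.42 for PFPalpha2, -0.61 for PFPbeta1 and -0.55 for iPGAM1. The difference of genotype by estradiol by auxin was -1.47 for FBA6 and -1.68 for ETR2. Of these, the following were lost in at least 1 alternative: FBA6 and NP-GAPDH on NPA and cTPI, NP-GAPDH and HRE1 on IAA in the response to estradiol; PFK4, PFPbeta1, SUS1 and ETR2 in amiR-TOR, and PFPalpha2, ENO1, ENO2, AT5G08570, AT2G36580, SUS4 and ETR2 in Col-0, in the response to IAA with and without estradiol; and all 3 that differed between genotypes in the response to IAA.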

How the results depend on the processing

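Of 175 called results of members, 106 were called in every alternative run, 69 were lost in at least 1, and none changed direction; 55 results that were not called became so in at least 1. Counts of called members that moved by over 1.5 times were as follows. Estradiol in amiR-TOR on IAA gave 7 with only the groups compared, against 12. Estradiol in Col-0 on IAA gave 0 with only those groups and 0 without the libraries of high unmapped share, against 1. The genotype on IAA gave 4 with RLE scaling, 4 with unstranded counts, 3 without the libraries of high unmapped share and 2 with only those groups, against 7. Auxin by estradiol in amiR-TOR gave 5 with RLE scaling, 5 with the covariate and 6 with DESeq2, against 3. In Col-0 it gave 5 without the libraries of high unmapped share and 15 with DESeq2, against 9. Genotype by auxin gave 5 and 7 under the same pair of alternatives, against 3. Without the libraries of high unmapped share, Col-0 on IAA with estradiol keeps only replicate 1. Counts that involve this group in that alternative rest on a single library there. The causes were not tested.

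With each library left out in turn, the lowest and highest counts for IAA against NPA were 19 and 22 in Col-0, 16 and 19 with estradiol, 12 and 17 in amiR-TOR, and 13 and 17 with estradiol. Estradiol gave 18 and 23 in amiR-TOR on NPA, 8 and 15 on IAA, 7 and 15 in Col-0 on NPA, and 0 and 1 on IAA. Genotype gave 11 and 17 on NPA and 2 and 7 on IAA. Genotype by estradiol gave 0 and 2 on NPA and 5 and 8 on IAA, auxin by estradiol 1 and 4 in amiR-TOR and 4 and 15 in Col-0, genotype by auxin 0 and 6, and genotype by estradiol by auxin 1 and 1.

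The deviations of libraries with equal replicate numbers had correlations of -0.379 to 0.31 over 30 pairs, 6 of them over 0.1. With 3 libraries a group these values cannot show whether equal numbers shared a planting or batch. With the replicate block the counts were 21, 21, 15 and 16 for IAA in Col-0, Col-0 with estradiol, amiR-TOR and amiR-TOR with estradiol, 19 and 9 for estradiol in amiR-TOR on NPA and IAA, 15 and 1 in Col-0, 20 and 6 for genotype, 2 and 6 for genotype by estradiol, 3 and 7 for auxin by estradiol in amiR-TOR and Col-0, 2 for genotype by auxin and 1 for genotype by estradiol by auxin. The fit of only the groups compared was not run for the last of these. With 3 libraries a group, small changes of low genes are not detectable at this depth.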
